A study of Mus musculus with 6 samples.

Results

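Binding of Bapx1 was described around 45 genes of the Wnt pathway, chosen by name out of 22219 protein-coding genes of the mm9 annotation. They comprised 19 Wnt ligands, 11 receptors (the Frizzled genes and Lrp6), 8 secreted antagonists, 3 R-spondins and 4 intracellular genes. A peak was assigned to a gene if its summit, the position of most tags within the peak, lay in the gene body or within 50 kb of either end. The window of a member, meaning its gene body with both flanks, had a median length of 122 kb, against 116 kb over all protein-coding genes.

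The data came from chromatin immunoprecipitation and sequencing (ChIP-Seq) of Bapx1 (Nkx3-2), a homeodomain protein of the early vertebral column and a known repressor of transcription. In the embryo pair, vertebral columns of CD1 embryos at E12.5 were used, and both libraries were made with the S-peptide antibody. The ChIP library came from pooled embryos whose endogenous Bapx1 carries an N-terminal S-peptide tag, and the control came from pooled wildtype embryos. In the NIH3T3 pair, V5-tagged Bapx1 was overexpressed in NIH3T3 cells, a mouse fibroblast line, and both libraries are described as made with the V5 antibody. The V5 control is described in the labels both as cells with empty pcDNA6 vector and as wild type cells. The titles of both controls call them input, while their descriptions name an antibody, and the descriptions were followed here. The tag sits on the endogenous gene in the embryo and on an overexpressed protein in the fibroblasts, and the 2 pairs also differ in tissue and depth. ChIP-Seq measures no expression, so the tissue could not be checked against marker genes.

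Wnt proteins are secreted lipid-modified ligands that bind Frizzled receptors together with the coreceptors Lrp5 and Lrp6. In the canonical branch this stabilises β-catenin (Ctnnb1), which activates target genes with Lef1 and the Tcf proteins, while the non-canonical branches act through the cytoskeleton and calcium. Secreted Frizzled-related proteins and Frzb bind Wnt ligands, Dickkopf proteins mostly bind Lrp coreceptors, and R-spondins enhance the signal. In the developing skeleton the canonical branch is known to restrain early cartilage formation and to promote bone formation.

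The 4 libraries held between 9124697 and 24855032 tags of 35 bp, and repeated tags at 1 position and strand were counted as 1. With 1 library per condition there is no spread between replicates, so no test was made. Ratios of ChIP to control tags were corrected for the totals of both libraries over the autosomes, X and Y. Intervals in parentheses are at 95%, and they cover counting error only. The authors' embryo list had 2815 peaks and the NIH3T3 list 23205. No embryo peak had a false discovery rate (FDR) of at most 5%, so the embryo counts below rest on the p cutoff of 1e-05 of the deposited list. The Sox9 library and its IgG control were left out, because their tags were hardly more frequent at the mm9 transcript starts than 5 to 6 kb away (ratios of 1.02 and 1.03, against 1.3 to 1.75 for the 4 libraries used).

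The sequences under the strongest sites that hold the known core motif of Bapx1, TGAGTG or TAAGTG, are shown first. Here and below, the strength of a site is its rank by the authors' p. Sites without the motif, such as those of Lrp6 in the embryo, are not among these sequences even where their p was smaller. The embryo sites with the motif and the smallest p lay near Fzd9, Sfrp1, Frzb, Rspo1 and Dkk3. Each sequence is the 101 bases centred on the summit, taken from the mm9 reference and read 5′ to 3′ on the strand given. Capitals mark the motif, or its reverse complement where a second match lies on the opposite strand.
Fzd9 (chr5:135740734-135740834, minus strand): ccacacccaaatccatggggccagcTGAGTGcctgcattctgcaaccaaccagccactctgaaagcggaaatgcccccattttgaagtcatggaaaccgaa
Sfrp1 (chr8:24536011-24536111, plus strand): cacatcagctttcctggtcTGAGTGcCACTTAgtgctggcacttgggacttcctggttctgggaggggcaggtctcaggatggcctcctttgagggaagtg
Frzb (chr2:80250154-80250254, plus strand): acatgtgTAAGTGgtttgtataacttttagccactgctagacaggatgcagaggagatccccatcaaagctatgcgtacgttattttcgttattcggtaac
Rspo1 (chr4:124667023-124667123, plus strand): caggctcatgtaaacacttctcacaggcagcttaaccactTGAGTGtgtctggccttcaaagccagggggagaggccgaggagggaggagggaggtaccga
Dkk3 (chr7:119288396-119288496, plus strand): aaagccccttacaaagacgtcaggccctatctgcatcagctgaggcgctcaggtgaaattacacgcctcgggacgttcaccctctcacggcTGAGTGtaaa

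The site near Fzd9 carried TGAGTG, and the site in Sfrp1 carried TGAGTG and, on the opposite strand, TAAGTG, with 1 base between them. Of these 5 embryo sequences, the Frzb site alone held only the TAAGTG spelling. The corresponding NIH3T3 sites with the smallest p lay near Dkk2, Rspo2, Fzd3, Sfrp2 and Wnt2.
Dkk2 (chr3:131866700-131866800, plus strand): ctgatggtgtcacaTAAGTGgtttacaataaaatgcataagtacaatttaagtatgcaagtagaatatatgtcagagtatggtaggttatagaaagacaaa
Rspo2 (chr15:42850500-42850600, plus strand): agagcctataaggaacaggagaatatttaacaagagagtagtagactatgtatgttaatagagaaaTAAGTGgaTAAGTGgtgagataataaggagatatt
Fzd3 (chr14:65863796-65863896, plus strand): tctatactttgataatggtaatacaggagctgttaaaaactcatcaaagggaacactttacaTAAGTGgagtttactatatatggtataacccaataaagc
Sfrp2 (chr3:83619460-83619560, plus strand): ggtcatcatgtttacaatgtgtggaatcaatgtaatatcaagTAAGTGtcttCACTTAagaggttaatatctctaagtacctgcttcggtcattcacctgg
Wnt2 (chr6:18029913-18030013, minus strand): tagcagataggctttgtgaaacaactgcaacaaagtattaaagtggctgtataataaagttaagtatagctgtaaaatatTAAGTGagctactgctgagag

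These 5 NIH3T3 sequences held TAAGTG throughout, with 2 copies at the Rspo2 site in the same orientation and 2 at the Sfrp2 site in opposite orientations. A motif match was present within 50 bp of 7 of 15 embryo summits of the members (46.7%, 21.3 to 73.4), namely those near Fzd9, Sfrp1, Frzb, Rspo1, Dkk3, Fzd7 and Lef1. Over the whole embryo list the share was 31.3%, which lies inside the interval of the members. At 500 bp to either side of all embryo summits, in equally long windows, it was 10.5%. For NIH3T3 the share was 41 of 67 member summits (61.2%, 48.5 to 72.9), against 64.4% of the whole list and 10.7% of its flanks. Read separately, TGAGTG stood at 33.3% of the embryo member summits and TAAGTG at 26.7%. In NIH3T3 cells TGAGTG stood at 10.4% of member summits and TAAGTG at 56.7%. The whole lists gave 18% and 15.3% in the embryo, and 15.1% and 57.0% in NIH3T3 cells. A match describes the letters in the window and does not show which protein was bound.

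In the embryo, 14 of the 45 members (31.1%) had a summit in their window, against 16.2% of all protein-coding genes. The 14 were the ligands Wnt4, Wnt5b and Wnt11, the receptors Fzd3, Fzd4, Fzd7, Fzd9 and Lrp6, the antagonists Sfrp1, Frzb and Dkk3, the R-spondin Rspo1, and Axin2 and Lef1. Lrp6 had 2 summits and the others 1 each, so that the members held 15 summits. From the share of control tags that fell in the same windows on each chromosome, 7.82 summits were expected, a ratio of observed to expected of 1.92 (1.07 to 3.16). The same ratio was 1.09 over the windows of all protein-coding genes. With windows of 20 kb and of 100 kb the interval of the ratio included 1 (0.764 to 3.48, and 0.915 to 2.31).

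In NIH3T3 cells, 28 of the 45 members (62.2%) had a summit, and the background over all protein-coding genes was 67.1%. Their windows held 67 summits where 69.3 were expected, a ratio of 0.967 (0.749 to 1.23). This interval included 1. A summit of both lists lay in the windows of 11 members (24.4%), against 13% of all protein-coding genes. These were Wnt4, Wnt5b, Fzd3, Fzd4, Fzd7, Fzd9, Lrp6, Sfrp1, Frzb, Dkk3 and Axin2. They were 11 of the 14 members with an embryo summit, against 2895 of the 3593 protein-coding genes with one. The higher share with both lists thus goes with the higher share of embryo summits. Wnt11, Rspo1 and Lef1 (6.67%) had a summit in the embryo list alone, against 3.14% of all protein-coding genes. A further 17 members (37.8%) had one in the NIH3T3 list alone, against 54.1%. The 14 members (31.1%) with none in either list were close to the background of 29.8%.

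**Figure D1:**
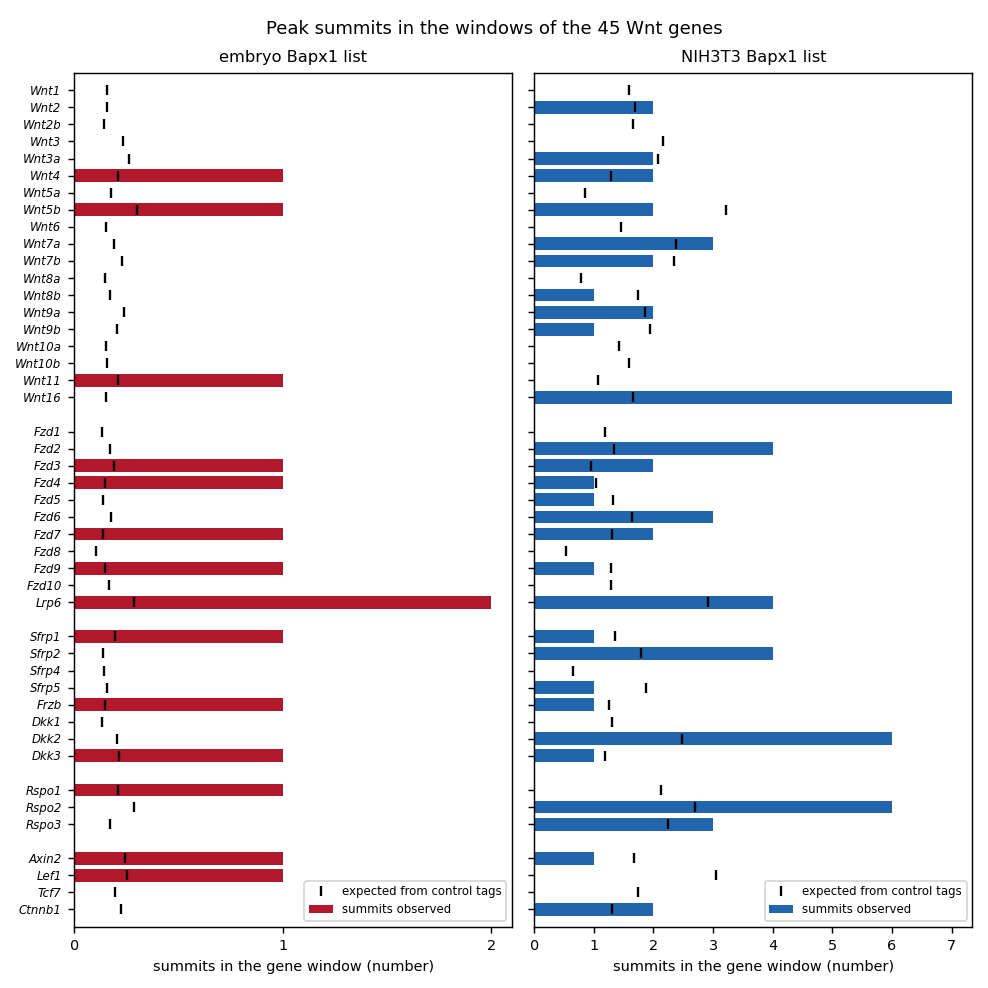
Number of peak summits in the window of each of the 45 genes (bars; horizontal axis, number of summits) for the embryo list (left) and the NIH3T3 list (right), with the number expected from the control tags as a black tick; genes are grouped, from top to bottom, as ligands, receptors, antagonists, R-spondins and intracellular genes. In the embryo Lrp6 holds 2 summits and 13 other genes 1 each, while in NIH3T3 cells Wnt16 holds 7 and Dkk2 and Rspo2 hold 6 each.

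The groups were also counted separately, against the same 16.2% and 67.1% of all protein-coding genes. Of the 19 ligands, 3 (15.8%) had an embryo summit and 10 (52.6%) a NIH3T3 summit. Of the 11 receptors, 5 (45.5%) had an embryo summit and 8 (72.7%) a NIH3T3 summit. All 5 had both, as had 2895 of the 3593 protein-coding genes with an embryo summit. Of the 8 antagonists the numbers were 3 and 6, of the 3 R-spondins 1 and 2, and of the 4 intracellular genes 2 and 2. These groups are small, and their differences were not tested.

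Among the ligands, Wnt11, which acts in cell movement and non-canonical signaling, had an embryo summit 30549 bp upstream of its start with 25 ChIP tags against 5 control tags within 200 bp, a ratio of 4.16 (1.57 to 13.9). At the same position the NIH3T3 pair had 1 tag in each library. Further embryo summits lay upstream of Wnt11 just outside its window, 50461 and 57421 bp from the gene body. The embryo summit assigned to Wnt5b, a ligand that regulates chondrocyte maturation, lay 235 bp upstream of a start of Adipor2, an adiponectin receptor gene, and 60465 bp downstream of the nearest Wnt5b start. It had 16 ChIP tags and 2 control tags in the embryo pair, and 4 and 1 in the NIH3T3 pair. The embryo summit of Wnt4, a ligand of joints and of kidney development, was the weakest of the 15, with 17 and 8 tags, and its interval included 1 (ratio 1.77, 0.724 to 4.74). Both libraries thus had tags at the Wnt4 site, and the excess in the ChIP library was within counting error.

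In NIH3T3 cells the ligand with most summits was Wnt16, a ligand of bone and joint, with 7 where 1.65 were expected. They ranged from 41512 bp upstream of the Wnt16 start to 46018 bp downstream of it, and their ChIP tags within 200 bp numbered 9 to 15. None of these 7 had a p of at most 1e-10, and the best ranked 8987 of 23205. Counts of 5 or more summits were reached by 7.49% of all protein-coding genes and by 3 members, Wnt16, Dkk2 and Rspo2. Wnt7a had 3 summits, with 9 to 13 ChIP tags and 1 or 2 control tags, and Wnt2, Wnt3a, Wnt4, Wnt5b, Wnt7b and Wnt9a had 2 each. At the summits of these 6 genes the ChIP tags ran from 8 to 25 and the control tags from 1 to 6. Wnt8b had 1 summit, with 16 and 5 tags (4.48, 1.57 to 15.6), in an intron of Sec31b. Wnt9b had 1 summit, with 17 and 1 tags (23.8, 3.73 to 994), which lay 172 bp upstream of a start of Gosr2. By the authors' p, the strongest ligand site lay 29028 bp upstream of Wnt7b and had 25 ChIP tags and 4 control tags (8.74, 3.02 to 34.6). Other ligand sites with 1 control tag, such as that of Wnt9b, had higher ratios. A summit 1009 bp upstream of Wnt9a also fell in the window of its neighbour Wnt3a and was counted for both. No summit of either list was found in the windows of Wnt1, Wnt2b, Wnt3, Wnt5a, Wnt6, Wnt8a, Wnt10a and Wnt10b. These were 8 of the 19 ligands (42.1%), against 29.8% of all protein-coding genes.

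Among the receptors, Fzd9 had the strongest embryo site of all members. This summit lay 13684 bp upstream of the gene in intergenic sequence, ranked 48 of 2815 by p, and had an FDR of 20.8% in the authors' list. Within 200 bp the embryo libraries had 51 ChIP tags and 2 control tags, a ratio of 21.2 (5.59 to 180). Within 500 bp it was 6.66 (3.32 to 15.2), and against the NIH3T3 control 12.8 (3.36 to 108). The NIH3T3 pair had 5 and 2 tags there (3.50, 0.573 to 36.7). Fzd9 encodes a Frizzled receptor also expressed in bone-forming cells. The only NIH3T3 summit in its window was 40079 bp away from the embryo summit.

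Lrp6, the coreceptor of the canonical branch, was the only member with 2 embryo summits in its window, a count reached by 2.88% of all protein-coding genes. This depends on the window, since further summits of Wnt11 lay just outside of its own. The first lay 6332 bp beyond the end of the gene, with 56 ChIP tags and 14 control tags (3.33, 1.83 to 6.48). The second lay 40157 bp upstream of the start, with 32 and 4 tags (6.66, 2.36 to 25.9). Neither carried the motif within 50 bp, and starts of Bcl2l14 and Mansc1 were nearer to them than that of Lrp6. In NIH3T3 cells Lrp6 had 4 summits, all within the gene body, with 11 to 13 ChIP tags and 0 to 5 control tags within 200 bp. The nearest of them was 6480 bp from an embryo summit.

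The remaining receptor sites of the embryo were weaker by p and, like those of Lrp6, lay nearer to starts of other genes. The summit of Fzd7, a receptor of stem and mesenchymal cells, had 26 and 8 tags (2.71, 1.19 to 6.92; 2.61, 0.985 to 8.69 against the NIH3T3 control) and lay 290 bp downstream of a start of Gm973. The summit of Fzd4, a receptor of vascular development, had 19 and 4 tags (3.96, 1.31 to 16.0; 2.38, 0.791 to 9.62 against the NIH3T3 control) and lay in an intron of Tmem135. That of Fzd3, which guides axons, had 16 and 5 tags and an interval that included 1 (2.67, 0.933 to 9.30). In the NIH3T3 pair these 3 positions had 1 to 4 ChIP tags and 2 to 5 control tags. In the NIH3T3 list, Fzd2 had 4 summits, of which 1 lay 213 bp upstream of its start, with 14 and 4 tags. The strongest NIH3T3 receptor site was in an intron of Fzd3, with 13 and 1 tags (18.2, 2.73 to 773). With 1 control tag this ratio was not precise, and against the embryo control it was 3.02 (1.22 to 7.70). Fzd5 had 1 NIH3T3 summit, 18427 bp from its start in an intron of Ccnyl1, with 11 and 3 tags (5.13, 1.36 to 28.6). The NIH3T3 summits of Fzd4, Fzd7 and Fzd9 had 10 to 18 ChIP tags and 2 to 4 control tags. Fzd1, Fzd8 and Fzd10 had no summit in either list.

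Fzd6 (chr15:38837879-38869732, plus strand), a receptor of planar cell polarity that can also restrain the canonical branch, had no embryo summit in its window. The nearest one lay 55144 bp upstream of the start, just outside the window, in a UTR of Baalc. This peak had 24 ChIP tags and 7 control tags within 200 bp (2.86, 1.19 to 7.85), an FDR of 60.7% and no motif within 50 bp. The NIH3T3 pair had 3 and 2 tags there.

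In NIH3T3 cells the Fzd6 window held 3 summits where 1.63 were expected, and 3 or more were held by 9 members (20%) and by 23.8% of all protein-coding genes. The first lay in an intron 4157 bp downstream of the Fzd6 start, with 14 ChIP tags and 2 control tags (9.79, 2.25 to 88.8). The second lay 13681 bp beyond the end of the gene, with 18 and 2 tags (12.6, 3.01 to 112). The third lay in a UTR of Cthrc1, with 11 and 3 tags (5.13, 1.36 to 28.6), and it alone carried the motif. At these 3 positions the embryo ChIP library had 3, 2 and 2 tags and the embryo control 3 each, so that no embryo enrichment was detectable at this depth. At the Fzd6 start itself the ratio was 1.06 (0.508 to 2.23) in the embryo pair, from 19 and 15 tags within 500 bp, and 1.80 (0.596 to 5.68) in the NIH3T3 pair, from 9 and 7 tags. Within 250 bp the embryo ratio was 2.67 (0.933 to 9.30), and this interval too included 1.

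**Figure D2:**
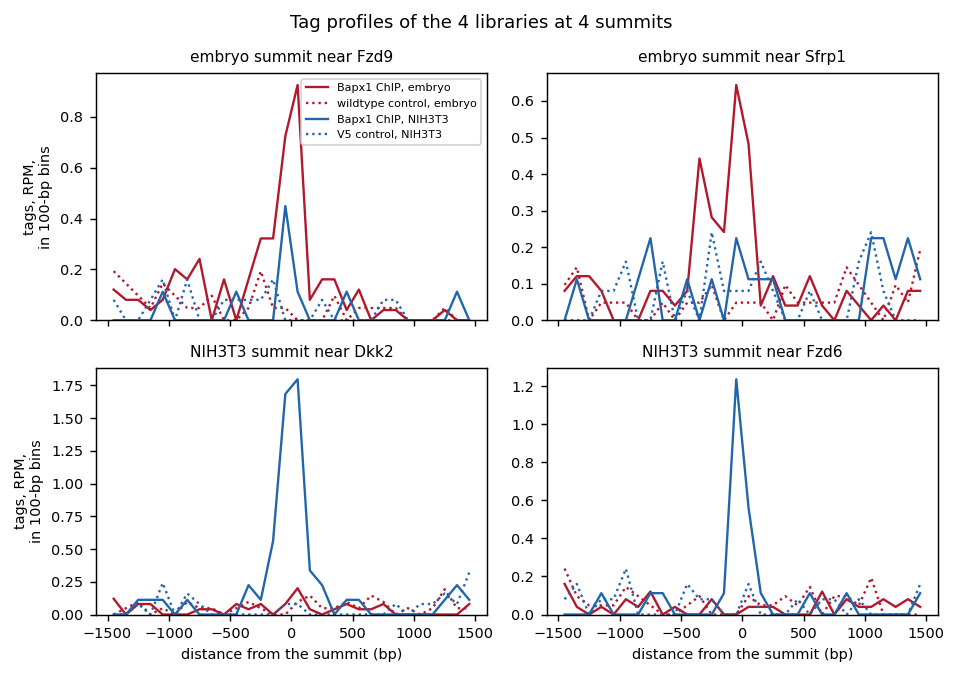
Tags scaled to library size (RPM, vertical axis) in bins of 100 bp around the summit (horizontal axis, bp) in the 4 libraries, at the strongest embryo sites, those of Fzd9 and Sfrp1, at the strongest NIH3T3 site, that of Dkk2, and at the strongest NIH3T3 site in the Fzd6 window; solid lines are ChIP and dotted lines control libraries. The Fzd9 site reaches 0.925 RPM (23 tags in a bin) in the embryo ChIP library and 0.449 (4 tags in a bin) in the NIH3T3 ChIP library. At the Dkk2 and Fzd6 sites the embryo libraries stay at background.

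Among the antagonists, Sfrp1, a secreted Frizzled-related protein, had the second strongest embryo site by p. It lay in an intron, 14087 bp downstream of the start, with an FDR of 20.6%, 35 ChIP tags and 3 control tags (9.72, 3.06 to 49.4). Against the NIH3T3 control the ratio was 3.51 (1.37 to 11.5), and within 500 bp 5.0 (2.54 to 11.0). The NIH3T3 pair had 4 and 5 tags at this position (1.12, 0.222 to 5.2). The single NIH3T3 summit of Sfrp1 was in the same intron, 2149 bp away, with 16 and 5 tags, where the embryo pair had 12 and 9. No other embryo summit of the members came as close to a NIH3T3 summit, and none of the 15 was within 1 kb of one. The share of the whole embryo list within 1 kb of a NIH3T3 summit was not counted, so this is no trait of the members.

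Frzb, an antagonist abundant in cartilage, had an embryo summit 1923 bp beyond the end of the gene, with 39 and 10 tags (3.25, 1.59 to 7.30). Its NIH3T3 summit lay in an intron, 29215 bp from the former, with 23 and 6 tags (5.36, 2.12 to 16.1). Against the control of the other cell source the ratio at the embryo site was 19.5 (3.31 to 791) and that at the NIH3T3 site 53.5 (8.69 to 2204), so the size of both depended on the control used. Dkk3, a divergent member of the Dickkopf family, had an embryo summit in an intron with 22 ChIP tags and 1 control tag, so that the ratio of 18.3 has a wide interval (2.96 to 756). Within 500 bp of this summit the ratio was 2.5. The NIH3T3 summit of Dkk3 lay 45600 bp upstream of its start, with 12 and 3 tags. All 3 embryo sites of antagonists carried the motif.

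Dkk2, which binds Lrp coreceptors, had no embryo summit but the strongest NIH3T3 site of all members, rank 245 of 23205. It lay 118494 bp downstream of the start, beyond the end of the gene, with 39 ChIP tags and 2 control tags (27.3, 7.06 to 233). The embryo pair had 8 and 5 tags there (1.33, 0.384 to 5.18). Dkk2 had 5 further NIH3T3 summits with 9 to 13 ChIP tags and 0 to 5 control tags, and all 6 carried the motif. At 1 of them, with 9 and 4 tags, the interval included 1 (3.15, 0.879 to 14.0). In their own pair 66 of the 67 NIH3T3 sites had a lower bound above 1. Sfrp2, another Frizzled-related protein, had 4 NIH3T3 summits, all with the motif and with 12 to 23 ChIP tags and 3 to 5 control tags. At the Sfrp2 site 10235 bp upstream of the start the embryo pair had 17 and 5 tags (2.83, 1.003 to 9.82). No other of the 67 NIH3T3 sites had a lower bound above 1 in the embryo pair, and this one was barely above it. Among 67 intervals, 1 such bound can arise from counting error alone. The share over the whole NIH3T3 list was not counted, so no binding at this site in the embryo is concluded. Sfrp5 had 1 NIH3T3 summit, with 14 and 3 tags (6.53, 1.82 to 35.4), and Sfrp4 and Dkk1 had none in either list.

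Of the R-spondins, Rspo1 had a summit in the embryo list alone and Rspo2 and Rspo3 in the NIH3T3 list alone, as had 3.14% and 54.1% of all protein-coding genes. Rspo1, which enhances Wnt signals through Lgr receptors, had an embryo summit in its first 5 kb, 3399 bp downstream of the start, with 27 and 6 tags (3.75, 1.52 to 11.1), and the NIH3T3 pair had 6 and 5 tags there. Rspo2, known for its part in limb development, had 6 NIH3T3 summits where 2.70 were expected in a window of 250 kb. The strongest by p lay 1807 bp beyond the end of the gene, with 23 and 4 tags (8.04, 2.75 to 32.0), and the embryo pair had 1 and 3 tags there. Rspo3, its relative in vascular development, had 3 NIH3T3 summits with 12 ChIP tags each and 0 to 2 control tags.

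Of the intracellular genes, Axin2, a feedback inhibitor and common readout of canonical signaling, had an embryo summit 24105 bp upstream of its start with 26 and 4 tags (5.41, 1.88 to 21.3). Its NIH3T3 summit was on the other side of the start, with 10 and 3 tags. Lef1, a transcription factor that binds β-catenin, had an embryo summit in an intron with 22 and 6 tags (3.05, 1.20 to 9.21), and within 500 bp the interval included 1 (1.57, 0.845 to 3.01). Ctnnb1 itself had 2 NIH3T3 summits, and that upstream of the gene had 11 and 3 tags. The one in an intron had 13 ChIP tags and no control tag. With the control set to the floor of 3 tags, its ratio was 6.06 (1.67 to 33.2). Tcf7, the other transcription factor of the group, had no summit in either list.

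Within the embryo list, the 15 sites were spread over its whole range of strength, and 7 of them (46.7%) had a p of at most 1e-10, against 23.5% of the list. Their FDR ran from 20.6% to 67.9% with a median of 59.9%. Of the 15 sites, 8 were intergenic and 7 intronic, 4 of the latter in introns of the member itself, and for 9 the nearest protein-coding start was that of the member. Of the 67 NIH3T3 sites, 33 were intergenic and 29 intronic, and for 48 the nearest start was that of the member. Here 12 sites (17.9%) had a p of at most 1e-10, against 21.7% of the list, and the FDR ran from 0.07% to 5.22%. Measured to a start of the member alone, 9 of 15 and 45 of 67 sites were more than 25 kb away. Some of these lay close to a start of another gene, such as the Wnt5b site 235 bp from Adipor2. The windows reach 50 kb past both ends of a gene, so such distances are built into them. The share over the whole lists was not counted.

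**Figure D3:**
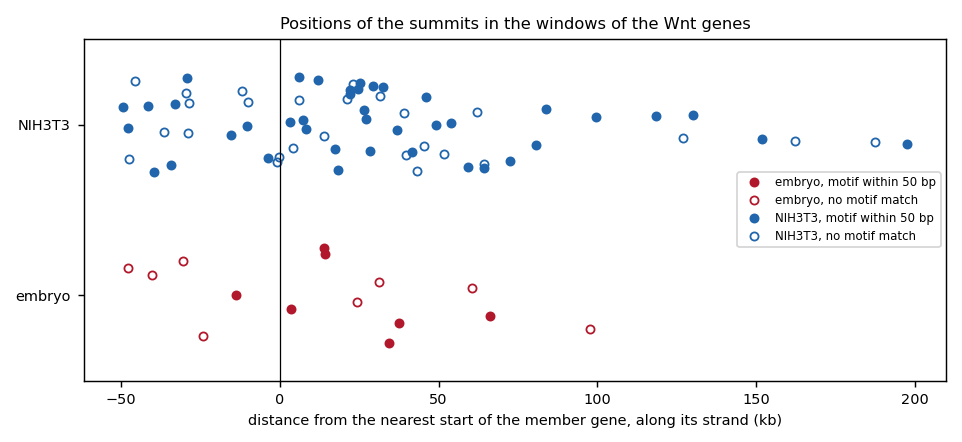
Position of each summit relative to the nearest start of the gene in whose window it lies (horizontal axis, kb along the strand of the gene) for the 15 embryo and the 67 NIH3T3 summits; filled points carry TGAGTG or TAAGTG within 50 bp, and the vertical spread only separates points. The embryo summits run from 47711 bp upstream (Fzd4) to 97720 bp downstream (Fzd3).

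The tags at these sites were then compared between the pairs. The 15 embryo summits together had 429 ChIP and 82 control tags in the embryo pair, a ratio of 4.36 (3.43 to 5.59) that describes how they were called. In the NIH3T3 pair, which took no part in that calling, they had 48 and 42 tags, a ratio of 1.60 (1.03 to 2.48). All summits of the embryo list together gave 1.69 in the NIH3T3 pair. None of the 15 had a lower bound above 1 there when taken alone. The NIH3T3 ChIP library had 1 to 6 tags at each of them, with a median of 3. At this depth a single site could hardly reach such a bound, and the share over all embryo summits was not counted. The 67 NIH3T3 summits had 921 and 176 tags in their own pair (7.32, 6.22 to 8.65) and 406 and 311 in the embryo pair, a ratio of 1.09 (0.936 to 1.26) against 1.12 over the whole NIH3T3 list. In both directions the value of the whole list lay inside the interval of the members.

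**Figure D4:**
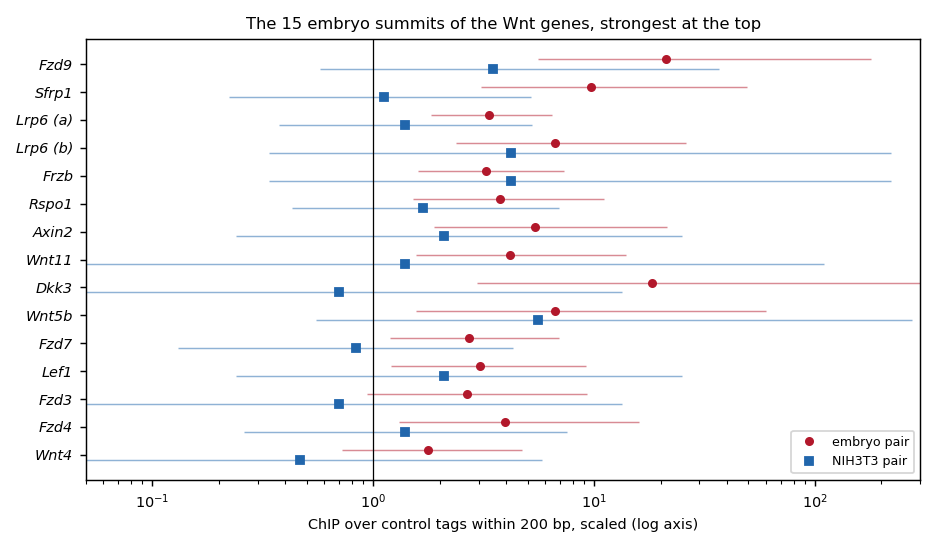
Ratio of ChIP to control tags within 200 bp of each of the 15 embryo summits (horizontal axis, log scale), in the embryo pair (circles) and the NIH3T3 pair (squares), with 95% intervals from counting error, some running past the axis; sites are ordered by the authors' p, and (a) and (b) mark the 2 sites of Lrp6. In the embryo pair 13 of the 15 intervals lie above 1, and in the NIH3T3 pair, with 1 to 6 ChIP tags at each site, none does.

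At the transcript starts, where tags within 500 bp of every protein-coding start of a gene were counted, few members stood out. A start was called if its ratio was at least 2 with a lower bound above 1. In the embryo 1 member was called (2.22%), against 2.47% of all protein-coding genes. This was Wnt1, the founding ligand of the family, with 45 ChIP and 15 control tags (2.5, 1.37 to 4.83). The nearest embryo summit was 283131 bp away, and against the NIH3T3 control the ratio was 1.13. The call of Wnt1 was also lost within 250 bp and within 1000 bp. In NIH3T3 cells 1 member was called, against 13.4% of all protein-coding genes. This was Fzd7, with 16 and 5 tags (4.48, 1.57 to 15.6), and the call was lost within 250 bp (1.4) and within 1000 bp (1.73, 0.868 to 3.49). The nearest NIH3T3 summit was 39729 bp away from the Fzd7 start. No member was called in both pairs, as were 0.824% of all protein-coding genes.

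The highest ratios after these were those of Dkk3 in the embryo, with 18 and 8 tags (1.87, 0.775 to 4.98), and of Fzd8 in NIH3T3 cells, with 9 and 4 tags (3.15, 0.879 to 14.0). The lowest in the embryo were Wnt4, with 8 and 15 tags (0.444, 0.163 to 1.12), and Wnt5b, with 31 and 48 tags (0.538, 0.331 to 0.863). The lowest in NIH3T3 cells were Fzd9, with 0 and 7 tags (0 to 0.971), and Wnt8a, with 2 and 11 tags (0.254, 0.0274 to 1.17). Wnt7b also had fewer tags than its control in NIH3T3 cells, with 7 and 26 (0.377, 0.138 to 0.891).

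Starts of receptors had higher ratios than starts of ligands in both pairs. In the embryo the median ratio was 1.25 for the 11 receptors and 0.902 for the 19 ligands, and 9 receptors and 9 ligands were above 1. In NIH3T3 cells the medians were 1.57 and 0.700, with 9 receptors and 4 ligands above 1. Over all protein-coding genes the medians were 1.01 and 1.12, and 50.3% and 54.7% of the genes were above 1. Summed over the genes of a group, receptors had 265 ChIP and 178 control tags in the embryo (1.24, 1.02 to 1.51) and 111 and 93 in NIH3T3 cells (1.67, 1.26 to 2.22). Ligands had 403 and 359 (0.935, 0.809 to 1.08) and 122 and 212 (0.805, 0.639 to 1.01). Antagonists, R-spondins and intracellular genes had summed ratios of 1.06, 1.07 and 1.01 in the embryo, and of 0.888, 0.763 and 0.836 in NIH3T3 cells. The difference between receptors and ligands was noticed after the values were seen, and it was not tested. The controls differ from the ChIP libraries in how far tags gather at starts in general. The summed ratio over all genes was 1.04 in the embryo and 1.36 in NIH3T3 cells. Both values lay inside the intervals of the receptors, whereas the NIH3T3 interval of the ligands lay below 1.36. The part of this in the group values was not tested.

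**Figure D5:**
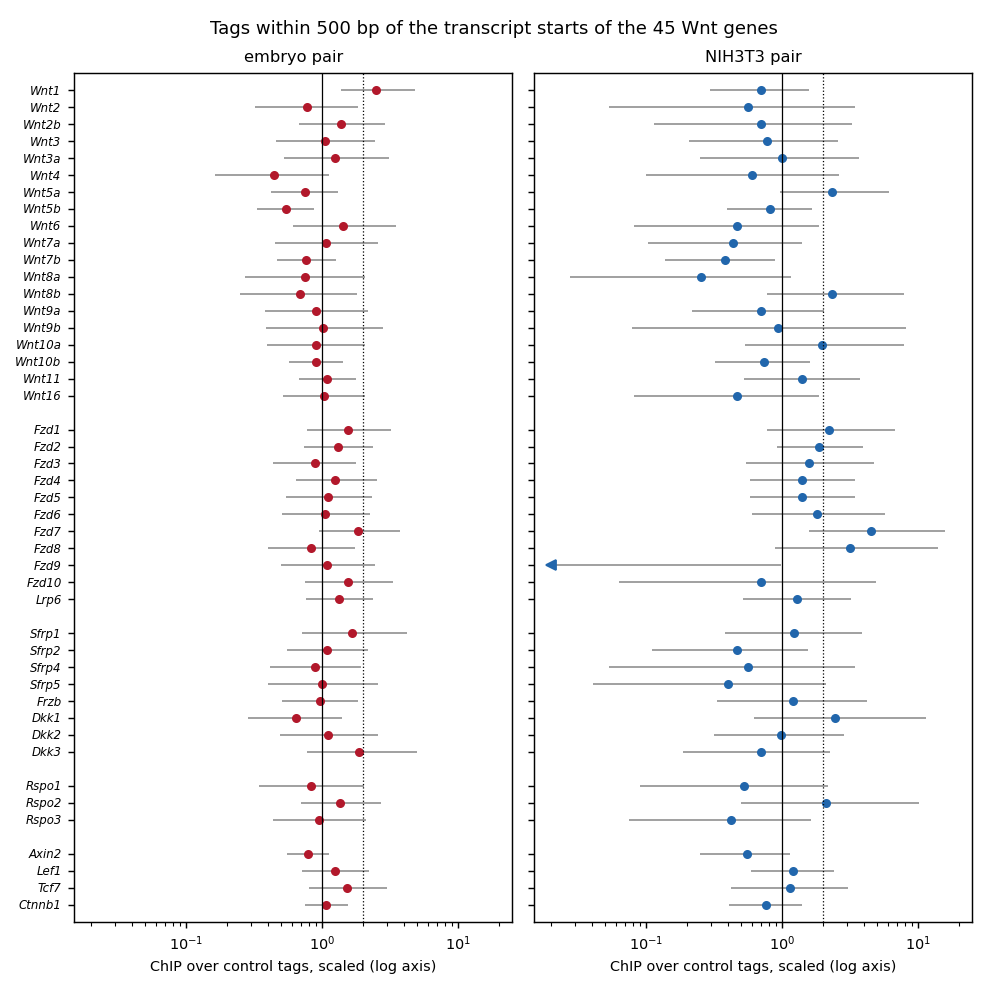
Ratio of ChIP to control tags within 500 bp of the transcript starts of each of the 45 genes (points; horizontal axis, log scale) with 95% intervals from counting error, in the embryo pair (left) and the NIH3T3 pair (right); the solid line marks a ratio of 1, the dotted line 2, and the triangle a ratio of 0. Wnt1 in the embryo and Fzd7 in NIH3T3 cells are the starts called, and most receptors lie to the right of 1 in NIH3T3 cells while most ligands lie to the left.

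Distances to the nearest summit were also taken from the starts. The nearest embryo summit lay within 5 kb of a start for 1 member, Rspo1, against 3.06% of all protein-coding genes, and the median distance was 203362 bp against 308336 bp. In NIH3T3 cells 4 members, Wnt9a, Fzd2, Fzd6 and Dkk2, had a summit within 5 kb, against 19.2% of all protein-coding genes, and the median distance was 39274 bp against 32838 bp.

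A further 42 genes of the pathway that are no members were counted in the same way. Of these, 13 (31.0%) had an embryo summit and 35 (83.3%) a NIH3T3 summit, against 16.2% and 67.1% of all protein-coding genes. Their windows held 23 embryo summits where 10.7 were expected (2.14, 1.36 to 3.22), and 105 NIH3T3 summits where 88.7 were expected (1.18, 0.968 to 1.43). These windows were longer than those of all protein-coding genes, with a median of 153 kb against 116 kb. The most embryo summits were those of Ror2, a receptor of Wnt5a, with 4 where 0.535 were expected. Ror1, Lgr6 and Tcf7l2 had 3 each, where 0.718, 0.281 and 0.485 were expected. The windows of these genes were long, from 219 kb (Lgr6) to 449 kb (Ror1). In NIH3T3 cells Lgr5, an R-spondin receptor, had 7 summits where 3.52 were expected in a window of 237 kb.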

How the data were processed

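Tag positions of 6 ChIP-Seq libraries, 1 per condition, were read, and 4 of them entered the comparisons. The authors mapped reads to mm9 with the Illumina Genome Analyzer Pipeline, kept unique matches of at most 2 mismatches, and deposited their positions with no normalization (start, end and strand of each tag). Each ChIP library came with a peak list from MACS, made with the matching control, whose header states a cutoff of 1e-05 for p. The deposited lists hold the count of tags in each peak, the p of the peak as a score (−log10, multiplied by 10), a ratio (fold over the local background), and the FDR in percent. No peaks were called again here. The vertebral column files held no repeated position and strand, whereas 2.36% and 6.53% of the NIH3T3 and V5 tags repeated one, so 1 tag per position and strand was kept. This left 24853758 and 20702403 tags in the embryo ChIP and control, and 8901095 and 12453788 in the NIH3T3 ChIP and control.

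Genes came from the GENCODE annotation of mm9 (NCBIM37), with all transcripts of a protein-coding gene forming its body. Tags were placed at their centre. The number of summits expected in a window was the share of control tags of the same chromosome that fell in it, multiplied by the peaks on that chromosome, and overlapping windows were merged. Distances are given along the strand of the gene from the nearest protein-coding start. A control count of 0 at a summit, or under 3 at a start, was set to 3. Intervals of 95% are exact binomial (Clopper-Pearson) for ratios and shares, and exact Poisson for counts of summits. The share of all protein-coding genes that passed the same rule served as background. No test was made, and no p is given. Counting of summits and calls at starts were tested on simulated data. Python 3.11.15, numpy 2.4.6, pandas 2.3.3, scipy 1.17.1 and matplotlib 3.10.9 were used.

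The 45 members, the 42 further genes and the rules were chosen with earlier results of these data known. Named with values were members with a summit in either list, starts that were called, Fzd6, and the 2 highest and 2 lowest ratios at starts in each pair. Sequences shown are the 5 member summits of each list with the motif and the smallest p. The sequence of the embryo summit nearest to Fzd6 lies in a UTR and is not shown. Alternatives were other windows, a p of at most 1e-10, an FDR of at most 5%, peak overlap, protein-coding transcripts only, another expectation, other distances around summits and starts, all tags, another scaling, a shifted tag, the other control, other thresholds and a longer motif. The Sox9 pair, used only to check the libraries, and 2 peaks on the mitochondrion were left out.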

Additional observations from a re-analysis of the deposited data

How the results depend on the processing

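Of 62 recomputed values of the main results, 43 stayed within the range that counts as unchanged (1.5 times for a count, the 95% interval for a ratio or share). Those from all tags in the embryo pair could not change, since its files held no repeated tags. The embryo ratios of observed to expected summits with windows of 20 kb and 100 kb also count as unchanged, although their own intervals included 1. The ratio of observed to expected NIH3T3 summits, 0.967, turned above 1 with windows of 100 kb (1.06) and with the expectation from chromosome length (1.17), and each of these intervals included 1. With windows of 20 kb, 8 members had an embryo summit and 4 had a summit of both lists. With peaks of p of at most 1e-10 the numbers were 6 in the embryo, 9 in NIH3T3 cells and 1 in both. The embryo ratio of observed to expected summits was then 3.92 (1.58 to 8.08). The shares of all protein-coding genes under these other settings, and under those for the starts below, were not counted. No member had an embryo summit with an FDR of at most 5%, since no peak of that list reaches it. Within 500 bp of the summits the pooled ratio was 2.73 in the embryo and 3.85 in NIH3T3 cells, and within 100 bp it was 11.2 in NIH3T3 cells. At starts, 0 embryo members were called within 250 bp, 0 within 1000 bp and 0 at a ratio of at least 3, and 4 against the NIH3T3 control (Fzd7, Fzd10, Rspo2 and Wnt11, without Wnt1). In NIH3T3 cells 0 were called within 250 bp, 3 within 1000 bp (Fzd2, Fzd5 and Wnt5a, without Fzd7) and 2 against the embryo control (Fzd2 and Fzd7). Of the 15 embryo sites, 13 had a lower bound above 1, against 12 within 500 bp and 11 with the NIH3T3 control, and no ratio fell to 1 or below. The sites were called from this same ChIP library, so ratios above 1 were largely given beforehand. The other control moved 10 of these 15 ratios by over 1.5 times, and 8 of those at the 10 NIH3T3 sites with the smallest p, which then ran from 3.02 to 53.5. With a G required after the motif, 20% of embryo (3 of 15) and 25.4% of NIH3T3 member summits had a match. The whole lists gave 12.3% and 24.6%. Of the single sites and starts, Frzb (19.5 and 53.5 against the other control), Dkk3 (2.5 within 500 bp), Fzd6 (2.67 within 250 bp, embryo), Fzd7 (1.4 within 250 bp, NIH3T3), Wnt1 (1.13 against the other control) and Wnt5b (0.233 at its most 5′ start, NIH3T3) left their intervals. The cause of these shifts was not tested, except that narrower windows, stricter thresholds and longer motifs admit fewer by construction.

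The ligand and receptor medians at starts were recomputed with alternatives chosen after seeing the data, and receptors stayed above ligands in each pair (1.02 against 0.937 within 1000 bp in the embryo, the closest). Leaving out a replicate was not possible with 1 library per condition. No paired analysis was possible because each group has 1 library. Depth limits single sites, since the member summits of the NIH3T3 list had a median of 12 ChIP tags within 200 bp.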
